A study of Mus musculus with 24 samples.

Results

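Dlx1, Dlx2, Dlx5, Dlx6, Lhx6, Sp8 and Prox1 encode transcription factors of the cortical interneuron lineage, and their RNA was followed here in cultured mouse cortical neurons. The genes were taken as a named list, and every probe set annotated to one of them alone was kept, which gave 7 genes and 10 probe sets of 18193 genes and 45101 probe sets in all. Lhx6 was read by 2 probe sets, Prox1 by 3 and each other gene by 1. The cultures were made from cortex of embryonic day 18 and kept for 1 week. They were then given 1 µM IBET858, 50 ng per ml BDNF, both together, or DMSO as the control, for 2 h or for 12 h. Each of the 8 groups had 3 Affymetrix arrays, 24 in all. Strain and sex are not given in the labels. Whether the 3 arrays of a group stand for 3 cultures or for repeats of 1 is not stated there either, and p-values cover only the spread between these samples, which may be technical.

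IBET858 is an inhibitor of BET proteins, which bind acetylated histones through bromodomains and help RNA polymerase II to elongate. BDNF is a secreted neurotrophin whose receptor TrkB drives activity-dependent transcription in cortical neurons. Cortical interneurons are born in the ganglionic eminences of the ventral forebrain and migrate into the cortex. The homeodomain factors of the DLX family act there in a cascade: Dlx1 and Dlx2 come first, and Dlx5 and Dlx6 are among their targets. Lhx6, a LIM homeodomain factor, marks the lineage of the medial ganglionic eminence that gives parvalbumin and somatostatin cells. The zinc finger factor Sp8 and the homeodomain factor Prox1 mark cells of the caudal ganglionic eminence, and Prox1 is also made by granule neurons of the dentate gyrus and by lymphatic endothelium.

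The deposited values were log2 intensities from which the median of each probe set over the 24 arrays had been taken away. A value of 0 is therefore that median and not a low level, differences between arrays are changes on the log2 scale, and neither the level of a gene nor its rank against another gene can be read. For the same reason the presence of interneurons in these mixed cultures could not be checked from levels, and fewer cells of a type and less RNA per cell cannot be told apart. The treatments were visible in their usual reporters. Hexim1, a gene whose RNA rises when BET proteins are inhibited, was 2.76 ± 0.10 (SE) higher at 12 h in IBET858 than in DMSO, and Arc, an activity-dependent gene, was 5.59 ± 0.14 higher at 2 h in BDNF than in DMSO (limma, adjusted p = 1.35e-14 and 1.66e-17). DMSO 2 h replicate 1 stood apart: its values had an SD of 0.218 around their group means over all genes, IBET858 12 h replicate 3 followed with 0.194, and the other 22 arrays lay between 0.089 and 0.143. On DMSO 2 h replicate 1 all 7 genes had the lowest value of the 3 arrays, with deviations of -0.0865 to -0.41 from the group mean, so 2 h values of these genes against DMSO are given with and without it. All 7 genes were also lowest of 3 on DMSO 12 h replicate 1 (-0.0761 to -0.226) and on BDNF and IBET858 12 h replicate 1 (-0.031 to -0.132). The 27 probe sets for the bacterial poly-A control transcripts were on average 0.865 higher in IBET858 than in DMSO at 12 h, and 0.499 higher in BDNF with IBET858 than in BDNF alone. The sources used here do not say whether such RNA was added, and its part in the 12 h results was not tested.

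Dlx1 and Dlx2 lie 9.43 kb apart on chromosome 2 (RefSeq, GRCm38.p6) and Dlx5 and Dlx6 lie 9.83 kb apart on chromosome 6. Dlx1 spans chr2:71528113-71533981, Dlx2 chr2:71543408-71546754, Dlx6 chr6:6863334-6867970 and Dlx5 chr6:6877801-6882068. Lhx6 spans chr2:36081950-36105992, Sp8 chr12:118846288-118852578 and Prox1 chr1:190118035-190170827. The 250 bases before an annotated start are shown for Dlx1 and Dlx2. This pair was chosen because Dlx2 and not Dlx1 was called with IBET858, and Dlx1 and not Dlx2 with BDNF against DMSO at 12 h. These differences between the neighbours were tested, as means over arrays with and without the other agent. On top of IBET858, both were called with BDNF at 12 h, Dlx1 lower and Dlx2 higher. The windows are chr2:71529195-71529444 on the plus strand for Dlx1 and chr2:71546755-71547004 on the minus strand for Dlx2. Each is written 5′ to 3′ on the strand of its gene. The Dlx1 window lies inside the gene span given above, before an internal start, and the Dlx2 window lies just outside its span. The windows are thus not at matching positions of their genes. Capitals mark matches, on either strand, to CACGTG (the E-box of MYC and USF factors), TGACGT (part of the cyclic AMP response element), TAATTA (a homeodomain core) and GGGCGG (the GC box of SP factors).
Dlx1 promoter: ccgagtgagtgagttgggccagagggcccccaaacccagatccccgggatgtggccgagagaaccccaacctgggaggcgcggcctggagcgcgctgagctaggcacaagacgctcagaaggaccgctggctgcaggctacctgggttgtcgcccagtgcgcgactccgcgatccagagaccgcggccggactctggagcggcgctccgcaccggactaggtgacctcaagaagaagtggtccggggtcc
Dlx2 promoter: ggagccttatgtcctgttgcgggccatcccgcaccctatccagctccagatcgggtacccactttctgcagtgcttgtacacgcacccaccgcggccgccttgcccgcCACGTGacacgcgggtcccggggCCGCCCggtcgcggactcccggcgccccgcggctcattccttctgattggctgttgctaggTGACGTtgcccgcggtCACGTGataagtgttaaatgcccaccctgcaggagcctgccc
The Dlx2 window held 2 matches to CACGTG, 1 to TGACGT and 1 to GGGCGG, and the Dlx1 window held none of the 4 motifs. Of 32851 such windows over all mouse genes, 6.02% held CACGTG, 6.47% TGACGT, 4.84% TAATTA and 32.7% GGGCGG. Windows were found for 5 of the genes, 10 windows in all. CACGTG and TGACGT were in none of the 8 windows of Lhx6, Sp8 and Prox1, GGGCGG was in 5 of them, and TAATTA was in 1, before the third start of Sp8. The matches are letters only, and no binding was measured.

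IBET858 against DMSO at 2 h raised 3 of the 7 genes and lowered 1 at an adjusted p below 0.05 (limma, Benjamini-Hochberg over all 18193 genes), where 14.9% of all genes were called. Dlx2, Dlx5 and Dlx6 were higher and Sp8 was lower. The median change of the 7 genes was 0.16 and that of all genes 0.02. At 12 h 4 genes were higher (Dlx2, Dlx5, Dlx6 and Prox1) and 1 was lower (Lhx6), against 48.7% of all genes called. That background is wide, and 5 of 7 genes is read against it. With BDNF present, IBET858 raised Dlx2, Dlx5 and Prox1 and lowered Sp8 at 2 h, so that 3 were higher and 1 lower, against 27.1% called over all genes. At 12 h the combination raised Dlx2, Dlx5, Dlx6 and Prox1 over BDNF alone and lowered Lhx6 and Sp8, 4 higher and 2 lower, with 46.8% of all genes called.

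BDNF against DMSO raised 2 genes at 2 h, Dlx5 and Prox1, and lowered none, where 27.9% of all genes were called. Neither was called without DMSO 2 h replicate 1, and Dlx1 and Dlx2 were called lower. At 12 h BDNF raised Dlx5, Dlx6 and Sp8 and lowered Dlx1 and Prox1, 3 higher and 2 lower, against 41% of all genes. The IBET858 and BDNF comparisons with DMSO share the DMSO arrays of their time. On top of IBET858, BDNF raised Prox1 and lowered Dlx1 and Sp8 at 2 h, 1 higher and 2 lower, against 21.2% of all genes. At 12 h it raised Dlx2 and Prox1 and lowered Dlx1, 2 higher and 1 lower, with 39.3% of all genes called. In DMSO alone none of the 7 genes passed the limma test at 12 h against 2 h, where 7.54% of all genes were called. 3 of them (Dlx2, Sp8 and Prox1) had an unadjusted p below 0.05 there. Without DMSO 2 h replicate 1, limma called 3 genes lower at 12 h than at 2 h in DMSO: Dlx2 by -0.34, Lhx6 by -0.38 and Sp8 by -0.60.

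**Figure D1:**
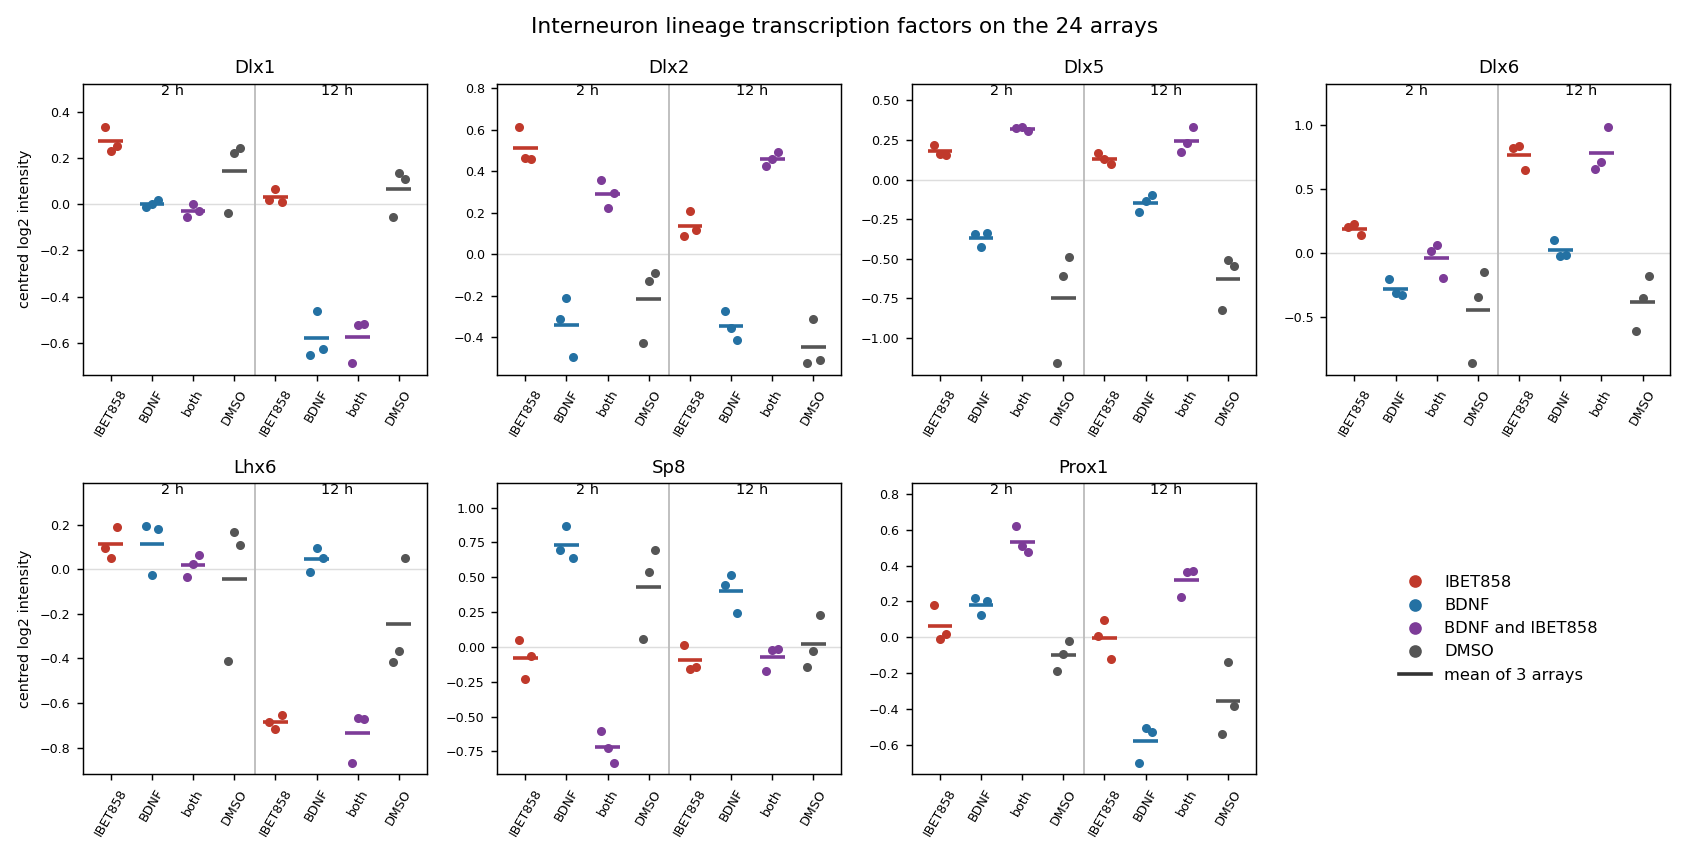
Centred log2 intensity (vertical axis) of the 7 genes on the 24 arrays, in groups of 3 arrays at 2 h and 12 h; points are arrays and lines are group means. Dlx2 and Dlx5 sat high in all 4 groups with IBET858, Dlx1 sat low in both 12 h groups with BDNF, and Lhx6 sat low in both 12 h groups with IBET858.

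Dlx1, with Dlx2 the first DLX gene of the eminences, fell with BDNF at 12 h, while its changes with IBET858 did not pass the test. It measured -0.65, -0.46 and -0.63 on the 12 h BDNF arrays, against -0.05, 0.14 and 0.11 on the 12 h DMSO arrays. All BDNF arrays lay below all DMSO arrays. The fall was -0.65 ± 0.07 (SE), or 0.639 times DMSO (adjusted p = 2.43e-07). The arrays with BDNF and IBET858 measured -0.69, -0.52 and -0.52 at 12 h, against 0.02, 0.06 and 0.01 with IBET858 alone. BDNF thus also lowered Dlx1 in the presence of the inhibitor, by -0.61 ± 0.07 (adjusted p = 6.99e-07). At 2 h Dlx1 was -0.14 ± 0.07 in BDNF against DMSO (adjusted p = 0.175), or -0.23 without DMSO 2 h replicate 1 (adjusted p = 0.0149). On top of IBET858 the 2 h change was -0.30 ± 0.07 (adjusted p = 0.00396). The BDNF effect on Dlx1 at 12 h minus that at 2 h was -0.51 ± 0.10 (adjusted p = 0.000771), one of 2 genes of the 7 for which that difference was called, both lower, against 24.8% of all genes. It was -0.42 without DMSO 2 h replicate 1 (adjusted p = 0.00142), and Dlx2, Dlx5 and Dlx6 were then called too, with higher effects at 12 h. IBET858 moved Dlx1 by 0.13 at 2 h and by -0.03 at 12 h, with 95% intervals of -0.02 to 0.28 and -0.18 to 0.12, and neither passed the test. The 2 h value was 0.04 without DMSO 2 h replicate 1 (adjusted p = 0.788). After cyclic loess normalization the 12 h value was 0.25 (adjusted p = 0.00694). Over BDNF at 12 h IBET858 moved Dlx1 by 0.01 (limma, adjusted p = 0.965). That change was called higher in 1 of 14 alternatives, with values up to 0.33 (lowest adjusted p = 0.000422). From high to low, the 6 groups other than the 12 h BDNF groups ran between 0.27 (IBET858 2 h) and -0.03 (BDNF and IBET858 2 h), each overlapping its neighbour, and the 2 BDNF groups of 12 h lay apart at -0.58 each.

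Dlx2, its partner, rose with IBET858 at both times, while its changes with BDNF alone did not pass the test. It measured 0.62, 0.46 and 0.46 on the 2 h IBET858 arrays, against -0.43, -0.13 and -0.09 on the 2 h DMSO arrays. The groups did not overlap, and the rise was 0.73 ± 0.08 (SE), 1.66-fold (adjusted p = 1.6e-06). Without DMSO 2 h replicate 1 it was 0.62 (adjusted p = 8.75e-06). At 12 h Dlx2 measured 0.09, 0.21 and 0.12 with IBET858, against -0.52, -0.31 and -0.51 with DMSO. These groups were apart too, by 0.59 ± 0.08 (adjusted p = 5.34e-06). The arrays with BDNF and IBET858 measured 0.43, 0.46 and 0.49 at 12 h, against -0.27, -0.36 and -0.41 with BDNF alone, a rise of 0.81 ± 0.08 (adjusted p = 5.38e-08). The group means fell into an upper set with IBET858, between 0.51 (IBET858 2 h) and 0.14 (IBET858 12 h), and a lower set without it, between -0.22 (DMSO 2 h) and -0.45 (DMSO 12 h). In the lower set each group overlapped the next, and in the upper set IBET858 2 h overlapped BDNF and IBET858 12 h. BDNF against DMSO gave -0.12 at 2 h and 0.10 at 12 h, with 95% intervals of -0.30 to 0.05 and -0.08 to 0.28. Without DMSO 2 h replicate 1 the 2 h value was -0.23 (adjusted p = 0.0393). On top of IBET858, BDNF gave -0.22 ± 0.08 at 2 h (adjusted p = 0.0728) and a rise of 0.32 ± 0.08 at 12 h (adjusted p = 0.00437).

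The difference between the neighbours was tested on the difference of their values on each array, shuffling the arrays within the strata of time and the other treatment (exact permutation tests, two-sided). Each time was tested alone (400 exact permutations, with 0.005 as the smallest possible p) and both together (160000 arrangements), and p-values were adjusted by Benjamini-Hochberg over the 12 tests of both Dlx pairs. Each effect in these tests is a mean over the arrays without and with the other agent. The effect of IBET858 on Dlx2 minus that on Dlx1 was 0.63 at 2 h and 0.71 at 12 h (exact permutation, adjusted p = 0.00667 each). The effect of BDNF on Dlx2 minus that on Dlx1 was 0.05 at 2 h (exact permutation, adjusted p = 0.431) and 0.84 at 12 h (adjusted p = 0.00667). Its mean over both times was 0.44 (adjusted p = 0.00395). The pairs were put to these tests, and split by time, with their responses already known.

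Dlx5 and Dlx6 are the neighbouring pair that DLX1 and DLX2 activate in the eminences, and both rose with IBET858. Dlx5 measured 0.22, 0.16 and 0.16 on the 2 h IBET858 arrays, against -1.16, -0.61 and -0.49 on the 2 h DMSO arrays. The 3 IBET858 arrays were close together and all above DMSO, by 0.93 ± 0.11 (SE) or 1.90-fold (adjusted p = 2.4e-06). Of all genes, 99.4% had a lower value, with falls counted as lower. Without the low DMSO array the Dlx5 rise was 0.73 (adjusted p = 4.92e-07). At 12 h the IBET858 arrays measured 0.17, 0.13 and 0.10, against -0.83, -0.51 and -0.55 with DMSO. The 12 h groups were apart by 0.76 ± 0.11 (adjusted p = 6.47e-06). BDNF raised Dlx5 over DMSO by 0.38 at 2 h and 0.48 at 12 h, each ± 0.11 (adjusted p = 0.0125 and 0.00131). The 2 h rise was 0.18 and no longer called without DMSO 2 h replicate 1 (adjusted p = 0.0916). IBET858 raised Dlx5 further over BDNF alone, by 0.69 at 2 h and 0.39 at 12 h (adjusted p = 4.71e-05 and 0.00553). The 4 group means with IBET858 lay at the top, between 0.32 and 0.13, each overlapping the next. Below them came BDNF 12 h at -0.15 and BDNF 2 h at -0.37, each apart from its neighbours, and then the DMSO groups at -0.63 (12 h) and -0.75 (2 h), which overlapped each other.

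In the deposited values Dlx6 had the largest change of the 7 genes with IBET858 against DMSO at 12 h. Over alternative ways of processing its rise ran from 0.85 to 1.25, and that of Dlx5 was 1.22 after cyclic loess. Dlx6 measured 0.82, 0.84 and 0.65 on the 12 h IBET858 arrays, against -0.61, -0.35 and -0.18 on the 12 h DMSO arrays. No arrays overlapped, and the rise was 1.15 ± 0.13 (SE), 2.22-fold (adjusted p = 2.71e-07). With BDNF present the 12 h arrays with IBET858 measured 0.66, 0.71 and 0.99, against 0.10, -0.02 and -0.01 with BDNF alone, a rise of 0.76 ± 0.13 (adjusted p = 5.13e-05). At 2 h Dlx6 measured 0.20, 0.23 and 0.14 with IBET858, against -0.86, -0.34 and -0.15 with DMSO. This rise of 0.64 ± 0.13 (adjusted p = 0.00155) was 0.44 without the lowest DMSO array (adjusted p = 0.00997). Over BDNF alone the 2 h difference was 0.24 and did not pass the test (adjusted p = 0.2). The IBET858 effect on Dlx6 was 0.51 ± 0.19 larger at 12 h than at 2 h (adjusted p = 0.0427). This was 1 of 2 genes of the 7, 1 higher and 1 lower, for which the inhibitor's effect differed between times, against 33.1% of all genes. Sp8 was called too without DMSO 2 h replicate 1, at 0.59 (adjusted p = 0.00379). The Dlx6 value was 0.71 without that array (adjusted p = 0.000749) and lost its call without any one of 9 other arrays, with adjusted p between 0.0584 and 0.145. BDNF raised Dlx6 over DMSO at 12 h by 0.40 ± 0.13 (adjusted p = 0.0189), or by 0.29 without DMSO 12 h replicate 1 (adjusted p = 0.125) and by 0.36 without BDNF 12 h replicate 1 (adjusted p = 0.069). The 12 h groups with IBET858, at 0.78 with BDNF and 0.77 without, overlapped each other and lay above IBET858 2 h at 0.19. BDNF 12 h and BDNF and IBET858 2 h overlapped next, and BDNF 2 h and the DMSO groups overlapped at the bottom.

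In the deposited values, the effect of IBET858 on Dlx6 minus that on Dlx5 had opposite signs at the 2 times. It was -0.37 at 2 h and 0.38 at 12 h (exact permutation, adjusted p = 0.00667 each over the 12 tests). Its mean over both times was 0.01. The 12 h order of the pair depended on the normalization. With both agents over BDNF the 12 h rise was 0.39 for Dlx5 and 0.76 for Dlx6, and 0.91 and 0.41 after cyclic loess. The permutation tests were not repeated after cyclic loess. The effect of BDNF on Dlx6 minus that on Dlx5 was -0.30 at 2 h (exact permutation, adjusted p = 0.00667). At 12 h that difference was -0.09 (adjusted p = 0.198). At 2 h BDNF gave 0.17 for Dlx6 and 0.38 for Dlx5 against DMSO, and -0.23 and 0.14 on top of IBET858. Of these only the Dlx5 value against DMSO was called. Over the 8 group means Dlx2, Dlx5 and Dlx6 had Pearson correlations of 0.69 to 0.84 with each other, and Dlx1 had correlations of 0.02, -0.27 and -0.40 with these 3 genes. The 8 points share 24 arrays and the same 2 treatments, and the values are a description.

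**Figure D2:**
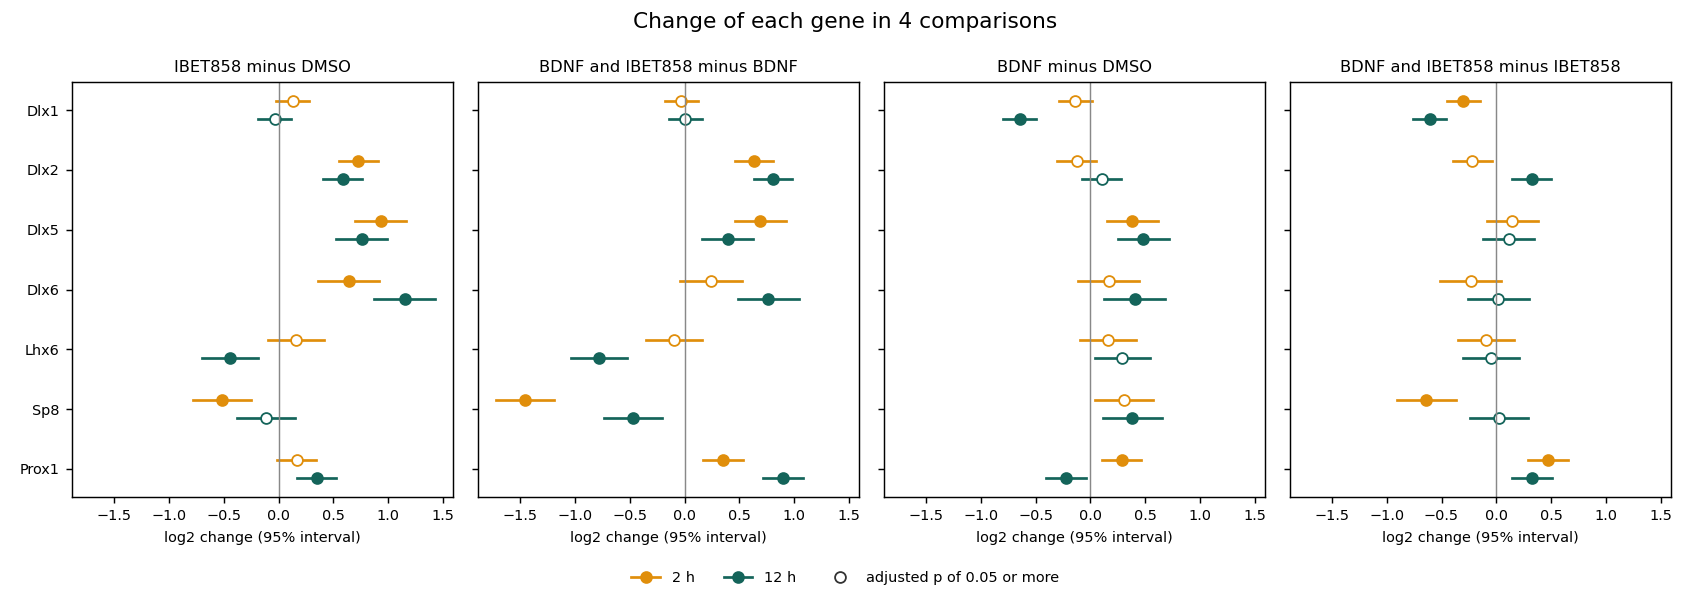
Log2 change of each gene with its 95% interval (horizontal axis) in 4 comparisons, at 2 h (orange) and 12 h (green); filled points passed an adjusted p of 0.05. Dlx2 and Dlx5 lie right of 0 in all 4 IBET858 values, the intervals of Dlx1 cross 0 in both left panels and lie left of it at 12 h in both right panels, and Sp8 at 2 h with both agents against BDNF is the leftmost point at -1.45.

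Antisense and neighbouring long noncoding RNAs lie within both loci. Dlx1as, which overlaps Dlx1, was read by 1 probe set, and so were Dlx6os1 (known as Evf2, a noncoding RNA that shares the Dlx5 and Dlx6 enhancer region) and Dlx6os2, which both overlap Dlx6. Dlx1as measured 0.04, -0.04 and -0.17 on the 12 h BDNF arrays, against -1.22, -0.95 and -0.86 on the 12 h DMSO arrays. It rose by 0.96 ± 0.11 (SE) where Dlx1 fell (adjusted p = 2.4e-07). At 2 h it rose by 0.55 ± 0.11 with BDNF (adjusted p = 0.000408), or 0.56 without DMSO 2 h replicate 1. Dlx1as also differed between the DMSO groups, by -0.77 ± 0.11 at 12 h against 2 h (adjusted p = 0.000142). IBET858 raised it by 0.37 at 12 h (adjusted p = 0.00689), with overlapping groups. Without DMSO 12 h replicate 1 that value was 0.26 (adjusted p = 0.0602).

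Dlx6os1 measured 0.65, 0.79 and 0.50 on the 12 h BDNF arrays, against -0.80, -0.33 and -0.35 on the 12 h DMSO arrays, a rise of 1.14 ± 0.16 (SE; adjusted p = 6.25e-06) and 2.21-fold. With BDNF and IBET858 it measured -0.20, -0.02 and 0.18 at 12 h, below all arrays with BDNF alone, by -0.67 ± 0.16 (adjusted p = 0.00167). At 2 h IBET858 also lowered it under BDNF, by -0.65 (adjusted p = 0.0041), after a BDNF rise of 0.95 (adjusted p = 0.000106) that was 0.68 without DMSO 2 h replicate 1. Dlx6, which it overlaps, went the other way in the same 12 h comparison, with the rise of 0.76 given above. Without BDNF, Dlx6os1 was 0.46 ± 0.16 higher with IBET858 than with DMSO at 12 h (adjusted p = 0.0247), a call lost without any one of 3 arrays of these groups (adjusted p between 0.051 and 0.155) and after cyclic loess (0.21, adjusted p = 0.346). The change of the inhibitor's effect under BDNF was -1.12 ± 0.23 for Dlx6os1 at 12 h (adjusted p = 0.0018). Dlx6os2 rose by 0.59 ± 0.16 with IBET858 at 12 h (adjusted p = 0.00414), and BDNF gave 0.26 (adjusted p = 0.221).

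**Figure D3:**
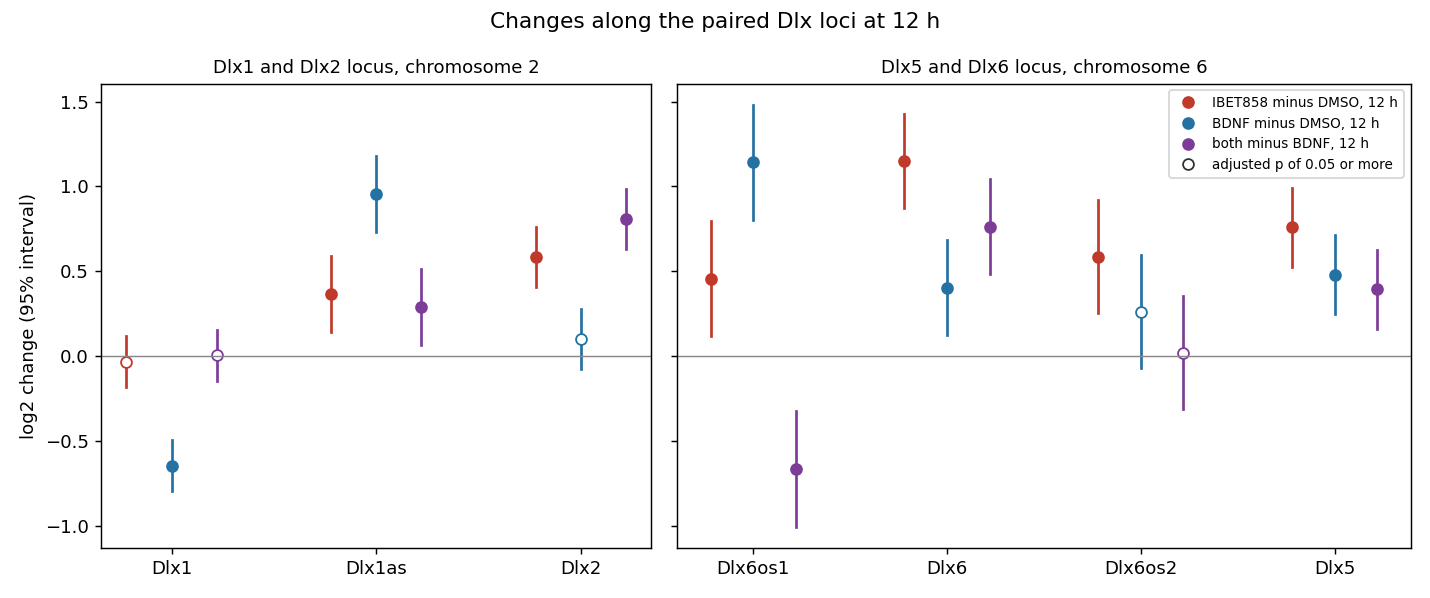
Log2 changes at 12 h with 95% intervals (vertical axis) for the genes of both Dlx loci in order along the chromosome; red is IBET858 minus DMSO, blue BDNF minus DMSO and purple both agents minus BDNF, and open points did not pass an adjusted p of 0.05. With BDNF Dlx1 lies at -0.65 and the overlapping Dlx1as at 0.96, and with both agents against BDNF Dlx6os1 lies at -0.67 and Dlx6 at 0.76.

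Lhx6, needed for medial eminence cells to migrate and to mature, fell with IBET858 at 12 h and not at 2 h. It measured -0.68, -0.72 and -0.66 on the 12 h IBET858 arrays, against -0.42, -0.37 and 0.05 on the 12 h DMSO arrays. The IBET858 arrays were tightly grouped below all DMSO arrays, by -0.44 ± 0.12 (SE; adjusted p = 0.00433). It also fell over BDNF, with -0.87, -0.67 and -0.67 with both agents, against -0.01, 0.09 and 0.05 with BDNF alone, a change of -0.78 ± 0.12 (adjusted p = 1.18e-05). The 2 h value for IBET858 was 0.16 ± 0.12 (adjusted p = 0.443), and -0.03 without DMSO 2 h replicate 1. The 12 h effect was -0.60 ± 0.17 against the 2 h effect (adjusted p = 0.00902), or -0.42 without that array (adjusted p = 0.0222). BDNF against DMSO gave 0.29 ± 0.12 at 12 h (adjusted p = 0.063). Of the group means, both 12 h groups with IBET858 lay apart at -0.69 and -0.73, and the other 6 lay between 0.11 and -0.24 with each overlapping the next.

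The 2 probe sets of Lhx6 disagreed. Probe set 1425094_a_at fell by -0.81 ± 0.15 with IBET858 at 12 h (adjusted p = 0.000119 over all probe sets), while 1422262_a_at gave -0.07 ± 0.16 (adjusted p = 0.739). The 12 h effect against the 2 h effect was -1.08 in 1425094_a_at and -0.12 in 1422262_a_at (limma, adjusted p = 0.000446 and 0.773). Over BDNF both probe sets fell at 12 h, by -1.07 and -0.49 (adjusted p = 3.72e-06 and 0.0149). The fall also depended on the normalization: after cyclic loess the mean of both probe sets was 0.21 with IBET858 against DMSO (adjusted p = 0.204) and -0.09 with both agents against BDNF (adjusted p = 0.633).

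Sp8, which caudal eminence cells and olfactory bulb precursors express, fell with IBET858 at 2 h, most of all under BDNF. It measured -0.61, -0.73 and -0.83 on the 2 h arrays with both agents, against 0.70, 0.86 and 0.64 with BDNF alone. These groups lay furthest apart of all for the 7 genes in the comparisons of 2 groups, by -1.45 ± 0.13 (SE), or 0.365 times BDNF alone (adjusted p = 9.25e-09), and 0.242% of all genes had a lower value. With IBET858 alone the arrays measured 0.05, -0.23 and -0.06, against 0.06, 0.54 and 0.69 with DMSO. The groups met without overlapping, and the change was -0.51 ± 0.13 (adjusted p = 0.0068). It was -0.70 without DMSO 2 h replicate 1 (adjusted p = 0.00011) and -0.38 without DMSO 2 h replicate 3 (adjusted p = 0.0515). The effect of IBET858 with BDNF minus that without it was -0.94 ± 0.18 (adjusted p = 0.00135), and Sp8 was the only gene of the 7 with such an interaction called at 2 h, against 8.4% of all genes. Without DMSO 2 h replicate 1 the interaction was -0.76 (adjusted p = 0.00203).

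At 12 h Sp8 measured -0.17, -0.02 and -0.02 with both agents, against 0.44, 0.52 and 0.24 with BDNF alone, a change of -0.47 ± 0.13 (adjusted p = 0.00388). After cyclic loess that change was -0.83. IBET858 against DMSO gave -0.11 ± 0.13 at 12 h (adjusted p = 0.484). This value was called lower in 1 of 14 alternatives, with values down to -0.42 (limma, lowest adjusted p = 0.0103). BDNF against DMSO gave 0.30 ± 0.13 at 2 h (adjusted p = 0.084), or 0.12 without DMSO 2 h replicate 1 (adjusted p = 0.516), and 0.38 ± 0.13 at 12 h (adjusted p = 0.0194). The 12 h rise lost its call without any one of 4 of the 6 arrays, with values of 0.30 to 0.36 and adjusted p between 0.0594 and 0.105. BDNF 2 h at 0.73, DMSO 2 h and BDNF 12 h overlapped at the top of the order. DMSO 12 h and 3 groups with IBET858 overlapped between 0.02 and -0.09, and BDNF and IBET858 2 h lay alone at -0.72.

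Prox1, which caudal eminence cells keep as they settle in the cortex, was highest where both agents were given, in the mean of its 3 probe sets. At 12 h it measured 0.22, 0.36 and 0.37 with both agents, against -0.70, -0.51 and -0.53 with BDNF alone. No arrays overlapped, and the rise was 0.90 ± 0.09 (SE), 1.86-fold (adjusted p = 1.49e-08). IBET858 alone gave 0.01, 0.10 and -0.12, against -0.54, -0.14 and -0.38 with DMSO, a rise of 0.35 ± 0.09 (adjusted p = 0.00203). The inhibitor's effect at 12 h was 0.55 ± 0.12 larger with BDNF than without it (adjusted p = 0.00359). Prox1 was the only gene of the 7 with an interaction called at 12 h, 1 higher and 0 lower, against 16.2% of all genes, and 2 genes of the 7 had an unadjusted p below 0.05 there.

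At 2 h Prox1 measured 0.62, 0.51 and 0.48 with both agents, against 0.22, 0.12 and 0.20 with BDNF alone and 0.18, -0.01 and 0.02 with IBET858 alone. The rise over BDNF was 0.35 ± 0.09 (adjusted p = 0.00357) and that over IBET858 was 0.47 ± 0.09 (adjusted p = 0.000327). BDNF against DMSO went opposite ways at the 2 times: 0.28 ± 0.09 at 2 h (adjusted p = 0.0173) and -0.22 ± 0.09 at 12 h (adjusted p = 0.0436, with overlapping groups), a difference of -0.51 ± 0.12 (adjusted p = 0.00364), or -0.46 without DMSO 2 h replicate 1 (adjusted p = 0.00941). The 2 h rise was 0.24 without DMSO 2 h replicate 1 (adjusted p = 0.0788), 0.26 without BDNF 2 h replicate 1 (adjusted p = 0.0626) and 0.27 without BDNF 2 h replicate 3 (adjusted p = 0.053). The 12 h fall lost its call without any one of 4 of the 6 arrays, with values of -0.25 to -0.12, the last without DMSO 12 h replicate 2. In the order of group means BDNF and IBET858 2 h at 0.53 and BDNF and IBET858 12 h at 0.32 each lay apart at the top. The other 6 ran between 0.18 (BDNF 2 h) and -0.58 (BDNF 12 h), each overlapping the next.

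The 3 probe sets of Prox1 carried different parts of this. All 3 rose at 12 h with both agents over BDNF, by 0.80 to 1.08. Over IBET858 alone at 12 h, 1421336_at and 1437894_at rose by 0.49 and 0.50, and 1457432_at gave -0.01 (adjusted p = 0.947). The interaction at 12 h was 0.47, 0.70 and 0.47 in 1421336_at, 1437894_at and 1457432_at, and was called in the first (adjusted p = 0.0152) but not in the others (adjusted p = 0.0755 and 0.0576). The 2 h rise with both agents over BDNF was 0.74 in 1437894_at and 0.42 in 1457432_at, while 1421336_at gave -0.10 (adjusted p = 0.469). The BDNF rise at 2 h was in 1421336_at (0.46, adjusted p = 0.000361) and the other 2 gave 0.25 and 0.13 without a call. The BDNF fall at 12 h was in 1457432_at (-0.49, adjusted p = 0.00151), where 1421336_at gave 0.02. With the most variable probe set the BDNF effect at 12 h minus that at 2 h was -0.46 and not called (limma, adjusted p = 0.207).

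**Figure D4:**
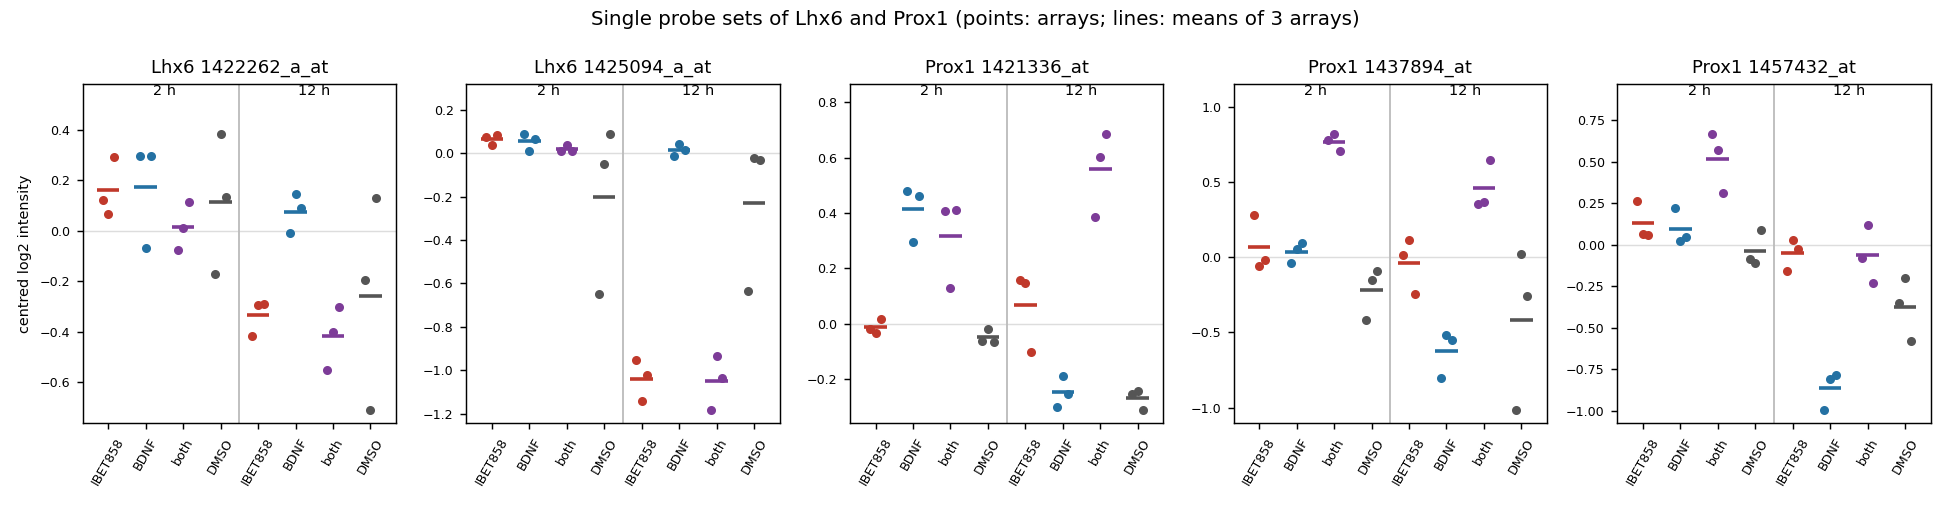
Centred log2 intensity (vertical axis) of the single probe sets of Lhx6 and Prox1 in the 8 groups of 3 arrays; points are arrays and lines are group means. At 12 h with IBET858 against DMSO, Lhx6 1425094_a_at changed by -0.81 and 1422262_a_at by -0.07; Prox1 1457432_at changed by -0.49 with BDNF at 12 h and 1421336_at by 0.02.

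Other genes of the interneuron lineage were taken from 4 further lists. Their counts at 12 h, and those of the markers of other cells, stand beside 22.9% of all genes higher and 25.8% lower with IBET858 against DMSO (48.7% called), and 16.9% higher and 24.2% lower with BDNF against DMSO (41% called). Of 13 measured patterning factors of the eminences, IBET858 at 12 h raised 2 and lowered none, and BDNF at 12 h raised 3 and lowered none, with both totals below the 48.7% and 41% of all genes. Gsx1, a homeodomain factor of ventral progenitors, was in both counts, at 1.51 ± 0.17 (SE) with IBET858 and 1.10 ± 0.17 with BDNF. With both agents at 12 h Gsx1 had the lowest change of the list, -0.87 against BDNF alone and -1.28 against IBET858 alone. The medians of this list were 0.04 with IBET858 and 0.10 with BDNF against DMSO, beside 0.04 and -0.01 for all genes. Without DMSO 2 h replicate 1 and IBET858 12 h replicate 3 the counts were 3 raised and 1 lowered with IBET858, and the same with BDNF. Of 15 other lineage factors, IBET858 at 12 h raised 3 and lowered 7, and BDNF raised 5 and lowered 3. Satb1, a chromatin organizer that acts after Lhx6, fell by -1.46 ± 0.08 with IBET858 (adjusted p = 8.81e-12). Zeb2, which helps direct eminence cells to the cortex, fell with both, by -0.66 with IBET858 and -0.64 with BDNF. Pou3f4 rose by 0.98 with IBET858 and 0.29 with BDNF, and Lhx2 fell by -1.05 with BDNF.

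The genes that interneurons use once specified were counted in the same way. Of 21 measured genes for GABA synthesis and transport and for interneuron subtypes, IBET858 at 12 h raised 4 and lowered 10 with a median of -0.12, and BDNF at 12 h raised 10 and lowered 3 with a median of 0.29. Vip, the peptide of a caudal eminence subtype, fell by -1.44 ± 0.10 with IBET858 and rose by 0.77 ± 0.10 with BDNF. Crh, another interneuron peptide, fell by -1.04 with IBET858 and rose by 1.91 with BDNF, but was 0.49 higher with IBET858 after cyclic loess. Elfn1 and Ndnf fell by -1.39 and -1.19 with IBET858. Gad2, which makes GABA, rose by 1.26 ± 0.11 with BDNF, and Tac1, the substance P precursor gene 673 kb from Dlx5, rose by 1.45 ± 0.07. Of 15 migration and receptor genes, IBET858 lowered 10 and raised 1 with a median of -0.40, while BDNF raised 5 and lowered 2, a total near the 41% of all genes. Cxcr4, a chemokine receptor of migrating interneurons, fell by -1.03 ± 0.16 with IBET858 and rose by 2.12 ± 0.16 with BDNF, and Ackr3, its partner receptor, fell by -1.86 ± 0.13 with IBET858. Without DMSO 2 h replicate 1 and IBET858 12 h replicate 3, IBET858 lowered 11 and raised 4 of the GABA genes, and lowered 9 and raised 1 of the migration genes. After cyclic loess it lowered 6 and raised 6 of the GABA genes with a median of 0.09.

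Markers of other cells moved in the same comparisons. Of 17 excitatory neuron markers, IBET858 at 12 h lowered 11 and raised 3, with a median of -0.53, and BDNF at 12 h raised 5 and lowered 7. The list mean lay between -0.60 and -0.53 on the 12 h IBET858 arrays, against -0.04 to 0.02 on the 12 h DMSO arrays. Slc17a6, a vesicular glutamate transporter gene, fell by -2.05 ± 0.08 with IBET858 and rose by 1.20 ± 0.08 with BDNF. Cux2, an upper layer factor, fell with BDNF and also with IBET858, there by -0.81 (0.46 after cyclic loess). IBET858 at 12 h lowered 4 and raised 2 of 11 astrocyte markers, with list means of -0.29 to -0.16, against -0.15 to 0.26 with DMSO. It lowered 5 and raised 1 of 11 microglia markers, with list means of -0.37 to -0.21, against -0.15 to -0.12 with DMSO. Of 10 oligodendrocyte markers it lowered 2 and raised 1, with list means of -0.14 to 0.07, against -0.07 to 0.04 with DMSO. For Prox1 the lists of its other cell types are given. IBET858 at 12 h raised 2 and lowered 2 of 12 vascular and lymphatic endothelial markers (list means -0.09 to 0.12, against -0.04 to -0.03 with DMSO). It raised 1 and lowered 2 of 7 granule neuron markers (-0.25 to -0.22, against -0.19 to -0.05 with DMSO). Prox1 was highest with both agents. There the endothelial list mean was 0.36 to 0.49 at 2 h, against -0.03 to 0.02 with BDNF alone. Of that list 2 were higher and 0 lower over BDNF, up to 3.64, against 27.1% of all genes called. At 12 h the mean was -0.09 to -0.06, against -0.12 to 0.0008. The granule list mean was 0.17 to 0.20 at 2 h, against 0.06 to 0.12, and 0.02 to 0.04 at 12 h, against 0.10 to 0.26. Of 11 progenitor and cycling markers IBET858 at 12 h raised 2 and lowered 1 (-0.09 to 0.01, against -0.15 to 0.13 with DMSO). BDNF at 12 h raised 0 and lowered 3 of the astrocyte markers, raised 1 and lowered 2 of the microglia markers and of the oligodendrocyte markers, raised 2 and lowered 1 of the endothelial markers, raised 2 and lowered 2 of the granule neuron markers, and raised 4 and lowered 1 of the progenitor markers. With IBET858 the 6 of 11 microglia markers and the 6 of 11 astrocyte markers called lie near the 48.7% of all genes. The part of other cells in the results for the 7 genes was not tested.

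The genes with patterns most like each of the 7 were taken by Pearson correlation over the 8 group means, and these values are descriptions over means that share 24 arrays. For Dlx1 they were Hnrnph2, Eola1 and Sil1 (0.99, 0.99 and 0.98). For Dlx2 they were Fam50b, Sgpl1 and Defb21 (0.97 each), and for Dlx5 Jph2, Ppp1r10 and Chit1 (0.97, 0.97 and 0.96). For Dlx6 they were Gatad2a, Thop1 and Cdr2l (0.99, 0.98 and 0.98), and for Lhx6 Sema3c, Zfp385b and Ranbp1 (0.99 each). For Sp8 they were Gcc1, Lonrf1 and Zbtb17 (0.97, 0.96 and 0.94), and for Prox1 4921517D16Rik, Bpifb3 and Elovl5 (0.98, 0.97 and 0.97). None of the 7 genes was among these 21. The ranges of the like genes over the group means were often smaller than those of the 7: 0.16 for Fam50b against 0.96 for Dlx2, and 0.37 for Hnrnph2 against 0.85 for Dlx1.

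The nearest measured genes outside each locus did not all move with it. Metap1d, 2.92 kb from Dlx1, gave 0.09 with IBET858 at 12 h (adjusted p = 0.233) and fell by -0.33 with BDNF (adjusted p = 9.73e-05). Hat1, the next gene, rose with both, by 0.62 and 0.31. Sdhaf3, 73.9 kb from Dlx5, rose by 0.20 with IBET858. Beside Lhx6, Morn5 rose by 0.48 with IBET858 at 12 h, and Rbm18 and Mrrf on the other side fell by -0.41 and -0.68. Sp8 lies between Sp4, 545 kb away, which rose by 1.38 with IBET858, and Itgb8, 310.2 kb away, which fell by -1.90. Prox1os, which overlaps the start of Prox1, gave -0.12 with IBET858 (adjusted p = 0.285) and -0.06 with BDNF (adjusted p = 0.643) at 12 h, and Smyd2, 196 kb away, fell by -0.64 with IBET858.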

How the data were processed

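RNA of 24 samples in 8 groups of 3 was measured on Affymetrix mouse arrays. The authors deposited one table of log2 values, made with RMA per the submitters' processing notes, and in the file each probe set has a median of 0 over the arrays; its log base is not given in the sources used here, and log2 is what RMA yields. Arrays are limited in precision by their number.

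Probe sets naming 1 gene (34945 of 45101) were averaged per gene, with names updated to RefSeq GRCm38.p6, giving 18193 genes. limma 3.58.1 (R 4.3.3) was fitted over all 8 groups with no covariate, 13 contrasts were tested, and p-values were adjusted by Benjamini-Hochberg over all genes, with a threshold of 0.05. The fit was tested on simulated data. Members of the list, gene lists and tests were chosen with earlier results of these data known. Named were the 7 genes and their probe sets. From each list, names were drawn from up to 4 called genes with the largest change, and not all of these are named. That change was in IBET858 or in BDNF against DMSO at 12 h. Also named were the 3 most alike genes by correlation, the 2 nearest measured genes on each side, and Hexim1 and Arc as checks. Dlx6os1, Dlx6os2 and Dlx1as were also followed at 2 h, which was chosen after their values were seen. Dlx1as, Dlx6os1 and Dlx6os2 overlap their partner genes, and probe sets were assigned by the platform's annotation alone. Same-numbered replicates deviated together (correlation over 0.1) in 2 of 36 pairs of arrays, so numbers were not used as pairs. No arrays were identical. Alternatives were array weights, median scaling, cyclic loess, other summaries of probe sets, smaller fits, a replicate block and left-out arrays.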

Additional observations from a re-analysis of the deposited data

Results flagged for a closer look

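For 6 results, the effect of one agent differed between the other agent's presence and absence, or between the 2 times, by a test of the difference itself (limma, adjusted over all genes). The effect of IBET858 on Sp8 at 2 h was lower with BDNF than without it, with a difference of -0.94 ± 0.18 (SE; adjusted p = 0.00135), with 3 arrays in each of the 4 groups. The effect of IBET858 on Prox1 at 12 h was higher with BDNF than without it by 0.55 ± 0.12 (adjusted p = 0.00359), and with the most variable probe set it was 0.70 and not called (adjusted p = 0.0612).

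Between times, the IBET858 effect was larger at 12 h than at 2 h for Dlx6 by 0.51 ± 0.19 (adjusted p = 0.0427) and lower for Lhx6, with a difference of -0.60 ± 0.17 (adjusted p = 0.00902). The BDNF effect was lower at 12 h than at 2 h for Dlx1, with a difference of -0.51 ± 0.10 (adjusted p = 0.000771) and for Prox1, with a difference of -0.51 ± 0.12 (adjusted p = 0.00364). The Dlx6 value lost its call in 13 of 20 alternatives, and the Lhx6 value turned to 0.03 after cyclic loess. By probe set the Lhx6 value was -1.08 in 1425094_a_at and -0.12 in 1422262_a_at (limma, adjusted p = 0.000446 and 0.773). With the most variable probe set the Prox1 value was -0.46 and not called (limma, adjusted p = 0.207).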

How the results depend on the processing

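Of 38 called changes of the 7 genes, 24 kept direction and call in every alternative, and 21 of 53 uncalled ones gained a call in at least 1; the cause of the changes below was not tested. Under cyclic loess the 12 h change with IBET858 turned to 0.25 for Dlx1 (called), 0.21 for Lhx6 (not called), 0.49 for Crh, 0.46 for Cux2 and -0.74 for Pecam1, and the difference of the IBET858 effect between times turned to 0.0319 for Lhx6. The number of the 7 genes called was 0 with cyclic loess for the IBET858 effect at 12 h against 2 h (1 with median scaling, with single probe sets and with only the groups compared, against 2). For BDNF against DMSO at 2 h it was 4 with array weights and 1 with cyclic loess, with the most variable probe set and with only the groups compared, against 2. For DMSO at 12 h against 2 h it was 4 with array weights, 4 without DMSO 2 h replicate 1 and IBET858 12 h replicate 3, and 1 with cyclic loess, against 0. For the BDNF effect between times it was 5 without those 2 arrays and 1 with the most variable probe set, against 2. For the interaction at 12 h it was 3, 2 (array weights) and 0 (most variable probe set), against 1, and for IBET858 against DMSO at 2 h 2 with only the groups compared, against 4.

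Leaving out one array at a time gave 2 to 5 of the 7 genes for the BDNF effect between times, 2 to 5 for BDNF against DMSO at 12 h, 1 to 3 at 2 h, 0 to 3 for DMSO between times, 1 to 3 for the IBET858 effect between times and 1 to 2 for the interaction at 12 h. Over all genes it gave 830 to 1647 calls for DMSO between times, against 1372. Array weights gave 6778 genes for the BDNF effect between times (4518 otherwise), 7942 for BDNF at 2 h (5068), 5828 for IBET858 at 2 h (2713), 2732 for the interaction at 2 h (1528) and 3933 for DMSO between times. Only the groups compared gave 1726 genes for IBET858 at 2 h and 136 for DMSO between times, for which 2183 were called without the 2 arrays named above. The share of higher calls was 50.6% with array weights for IBET858 at 2 h, against 37.9%, and 53.6% with cyclic loess for both agents against IBET858 at 12 h, against 40.9%. With a replicate block, 6 of the 7 genes were called for BDNF against DMSO at 12 h, against 5, every other count of the 7 was the same, and 8817 genes were called for IBET858 at 12 h, against 8861; the numbers do not pair the samples.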
